A study of Mus musculus with 11 samples.

Results

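Nestin (Nes), vimentin (Vim), synemin (Synm), glial fibrillary acidic protein (Gfap) and plectin (Plec) were examined in RNA from retinal vascular endothelial cells. They are 5 of the 55359 genes in the count files, matched by symbol in GENCODE to the Ensembl identifiers. All 5 passed the filter on low counts. The set was drawn up around Nes because Nes had one of the lowest p values between OSM-treated and PBS-treated mice. In that comparison it ranked 9th of 17050 genes (edgeR, unadjusted p = 0.000685, adjusted p = 0.955). The difference between OSM and PBS is therefore a description for these genes, and the p values of Nes in this contrast are those it was chosen on and support nothing. Differences between litters and the order of levels were not used in the choice and were tested. The interaction of treatment with litter and the way the genes varied together were tested too. For Nes these are not fully separate from the choice. A low p favors a difference alike between litters, and a treatment difference enters the correlations.

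Intermediate filaments are rope-like polymers that give cells resistance to stretch. Vimentin is the main filament protein of endothelial and other mesenchymal cells and can polymerize alone. Nestin and synemin are long filament proteins that depend on a partner such as vimentin or desmin. GFAP forms the filaments of astrocytes and reactive Müller cells, and plectin is a giant linker that ties filaments to each other, to actin and to adhesions. In the vasculature, nestin is known from young and proliferating endothelium and from pericytes.

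The mice were C57BL/6 pups in the oxygen-induced retinopathy (OIR) model, in which high oxygen and then room air lead to pathological vessel growth. At postnatal day 12 (P12) they received an intravitreal injection of 0.5 µL of OSM (oncostatin M, a cytokine of the interleukin-6 family) at 100 ng/µL or of PBS. At P17, CD31+/CD45- cells were sorted from both retinas of each mouse, which were pooled. According to the study's methods, contralateral eyes were injected with PBS, and it is not given if the eyes of a mouse that was sequenced had the same injection. Mice 1, 2, 5, 6 and 9 were OSM-treated (n = 5) and mice 3, 4, 7, 8, 10 and 11 were PBS-treated (n = 6). Mice 1 to 4, 5 to 8 and 9 to 11 formed litters 1, 2 and 3, each from a separate OIR experiment, so litter 3 held 1 OSM-treated mouse.

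Total counts ranged from 26697990 to 56033479 per mouse. Endothelial markers were high in all mice, with a summed level of 12 genes between 513143 and 715785 normalized counts (reads scaled by library size and TMM factor). Other cells were also represented. The 13 mural (pericyte and smooth muscle) markers summed to 14461 to 75843, and 9 rod markers to 4193 to 117957, with the highest rod sum in OSM-treated mouse 5. The 9 leukocyte markers summed to 8 to 599. In bulk RNA, fewer cells of a type and less RNA per cell cannot be told apart.

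The sequences upstream of Nes and Vim are shown because these were the filament genes with the highest levels, and they differed in how their counts lay between the treatments. Each is the 250 bases before the start of the canonical GENCODE transcript, read from GRCm39 on the plus strand, at chr3:87878150-87878399 for Nes and chr2:13578513-13578762 for Vim. The last 15 bases for Nes and the last 25 for Vim lie within the annotated gene, since other transcripts begin further upstream. Capitals mark the GC box GGGCGG on either strand.
Nes: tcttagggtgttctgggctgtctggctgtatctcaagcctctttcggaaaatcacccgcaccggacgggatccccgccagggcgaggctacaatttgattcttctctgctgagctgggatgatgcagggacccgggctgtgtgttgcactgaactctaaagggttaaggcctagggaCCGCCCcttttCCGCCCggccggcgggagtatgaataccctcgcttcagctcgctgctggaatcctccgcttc
Vim: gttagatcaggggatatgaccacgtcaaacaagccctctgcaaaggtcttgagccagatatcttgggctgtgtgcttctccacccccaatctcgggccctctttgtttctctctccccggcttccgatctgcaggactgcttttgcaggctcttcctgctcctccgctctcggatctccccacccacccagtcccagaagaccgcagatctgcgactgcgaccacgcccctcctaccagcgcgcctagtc
The Nes sequence held 2 GC boxes, both on the reverse strand, and the Vim sequence held none. A GC box was present in 36.2% of 21247 promoters of this length. These promoters are of protein-coding genes and do not cover every chromosome. STAT3 is a known mediator of OSM signaling, and its consensus TTCNNNGAA was in neither sequence. The AP-1 motif TGANTCA and the TATA motif TATAAA were also in neither. These 3 motifs were present in 7.65%, 6.22% and 11.9% of promoters. All motifs were searched on both strands, and the motifs found do not overlap. A match is a stretch of letters and not a binding site. The GC content was 58.8% for Nes and 59.2% for Vim, against a median of 53.2%.

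In these cells the filament RNA was mostly Vim. Compared per kb of exon, Vim had a mean level of 9927 normalized counts per kb and ranked 78th of 16962 tested genes with a known length. Nes followed with 2400 per kb, ranking 484th. Synm, which links filaments to the dystrophin complex in muscle, reached 746.5 per kb, and Plec 485.9 per kb. Gfap was last with 6.132 per kb, ranking 14369th.

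The whole order was the same in 9 of 11 mice. On the log2 scale of level per kb (pseudocount 1), Vim was above Nes by 2.07 ± 0.311 (SD, n = 11) and Nes above Synm by 1.72 ± 0.466, each in 11 of 11 mice (exact permutation test by sign flips, two-sided, adjusted p = 0.0013 over 4 pairs). The unadjusted p of 0.000977 is the smallest this test can give. Synm was above Plec by 0.587 ± 0.531, in 9 of 11 mice (exact permutation test, adjusted p = 0.00586). Plec was above Gfap in 11 of 11 mice (exact permutation test, adjusted p = 0.0013). Synm and Plec were the closest neighbors, and their difference was near its spread. With the length of the longest transcript in place of the union of exons it was 0.37 (exact permutation test, adjusted p = 0.0469).

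**Figure D1:**
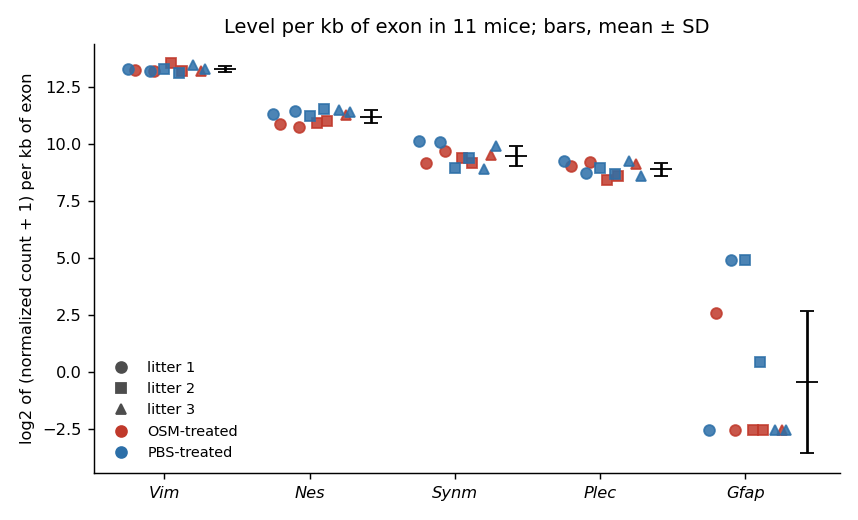
Level of each gene per kb of exon in 11 mice, as log2 of the normalized count plus 1 per kb, with color for treatment and shape for litter, and bars for the mean and SD over all mice. Vim lies above Nes in 11 of 11 mice, Synm and Plec lie close together, and Gfap falls to the floor in 7 mice.

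Nes, on chromosome 3 (87878385 to 87887758, plus strand, 4 exon blocks and 6416 bases of exon), was measured in every mouse. The 5 OSM-treated mice had 12104, 10938, 12350, 13192 and 16079 normalized counts in mice 1, 2, 5, 6 and 9. The 6 PBS-treated mice ranged from 15583 to 18923, with a median of 17810. Thus 4 of the 5 OSM-treated mice lay below all PBS-treated mice, and mouse 9, the OSM-treated mouse of litter 3, lay above 1 of them, mouse 7.

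The means were 12933 ± 1934 (SD, n = 5) with OSM and 17458 ± 1263 (SD, n = 6) with PBS. With litter as a term, the log2 difference of OSM minus PBS was -0.42 with a standard error of 0.089. By the edgeR quasi-likelihood test with an adjusted p under 0.05, 0.0% of 17050 genes were called, and Nes was not. At an unadjusted p under 0.05, 2.71% were lower and 2.25% higher in OSM-treated mice, and Nes was among the lower. DESeq2 called 0.763% of 22014 genes, Nes included (adjusted p = 0.00233). As Nes was picked from this contrast, these values only place it and are no test of it.

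The direction within litters can be read mouse by mouse. Each OSM-treated mouse was below each PBS-treated mouse of its own litter, in 10 of 10 such pairs, an arrangement met by 0.845% of tested genes in this direction. On the log2 scale, Nes differed by -0.58 within litter 1, -0.43 within litter 2 and -0.15 within litter 3 (OSM minus PBS). Whether the size differed between litters was tested as an interaction and was not called (edgeR, adjusted p = 0.794). The choice of Nes on a low p favors a difference alike between litters, so neither the pairs nor this test are separate from it. Nes also was not called between litters (adjusted p = 0.634). Leaving out 1 mouse at a time gave log2 differences between -0.51 and -0.37, from the same mice that Nes was chosen on.

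**Figure D2:**
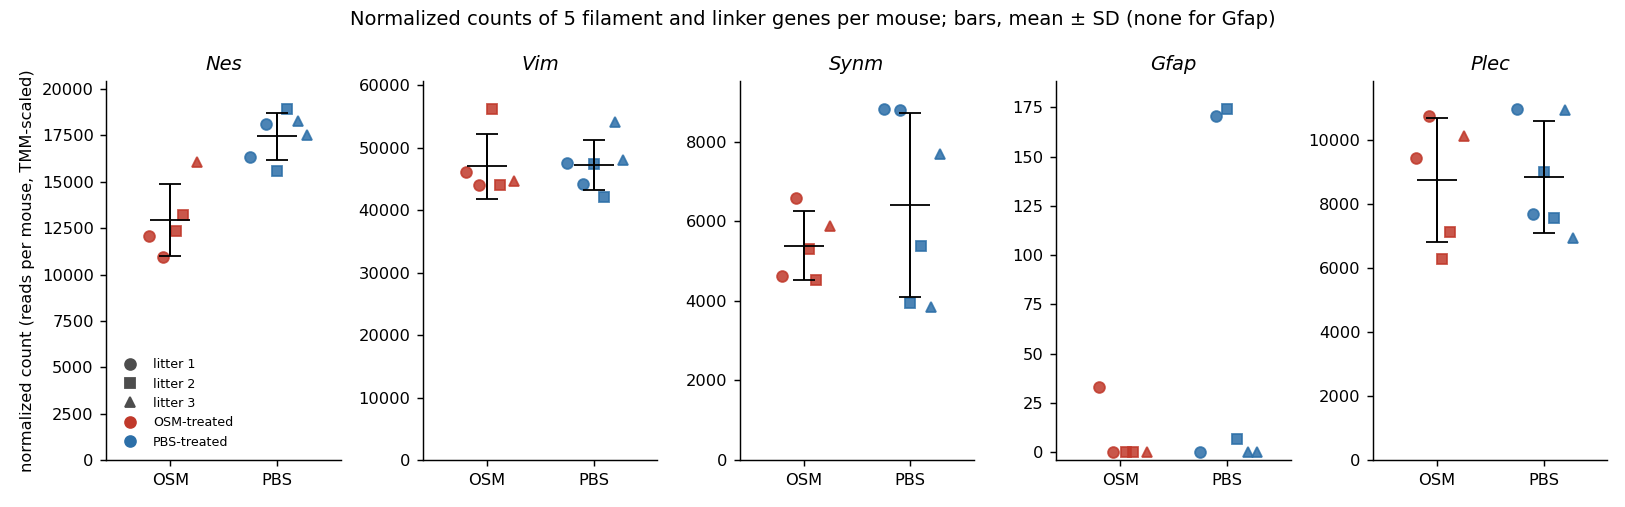
Normalized counts of the 5 genes in each mouse, by treatment (color) and litter (shape), with the mean and SD of each group except for Gfap. Nes lies between 10938 and 16079 in OSM-treated mice and between 15583 and 18923 in PBS-treated mice, while the treatments overlap throughout for Vim, Synm and Plec.

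Markers of other cells were set beside Nes. The mural sum was 20476 to 39624 in OSM-treated mice (median 21358) and 14461 to 75843 in PBS-treated mice (median 41035). Of the 13 mural markers, 0 were at 0 in every mouse. Of the 12 tested, 11 had lower fitted values in OSM-treated mice, 2 of them with an unadjusted p under 0.05 and 0 called by edgeR. Among all 17050 genes tested, 8795 had lower fitted values, and 2.71% were lower with an unadjusted p under 0.05 by edgeR. Within litters, the mural sum of the OSM-treated mouse was below that of the PBS-treated mouse in 8 of 10 pairs, with both exceptions against mouse 8. The PBS-treated mouse with the lowest mural sum of all, mouse 8 at 14461, had the highest Nes count. PBS-treated mouse 11, with the highest mural sum, had a Nes count of 17499. PBS-treated mouse 7, with a mural sum of 60128, had the lowest Nes count of the PBS-treated mice, 15583. OSM-treated mice 1 and 2, with mural sums of 21213 and 20476, had the lowest Nes counts of all, 12104 and 10938. OSM-treated mouse 9, with a mural sum of 21358, had 16079.

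The 15 proliferation markers were compared in the same way. Their sum was 14920 to 24059 in OSM-treated mice (median 20707) and 19727 to 34529 in PBS-treated mice (median 24844). Beside the values over all genes given above, 12 of the 15 had lower fitted values with OSM, 3 with an unadjusted p under 0.05 and 0 called by edgeR. DESeq2 called 1, the ubiquitin-conjugating enzyme gene Ube2c (adjusted p = 0.0308), named after its value was seen. The sums of the groups overlapped, and within litters the sum of the OSM-treated mouse was the lower in 9 of 10 pairs. The part of mural or proliferating cells in the Nes difference was not tested. Exon length was also compared, as Nes is a long transcript. Among genes with a mean of at least 100 normalized counts, the median log2 difference was 0.06 for those up to 2 kb, 0.004 for those of 4 to 8 kb, which includes Nes, and -0.03 above 8 kb.

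**Figure D3:**
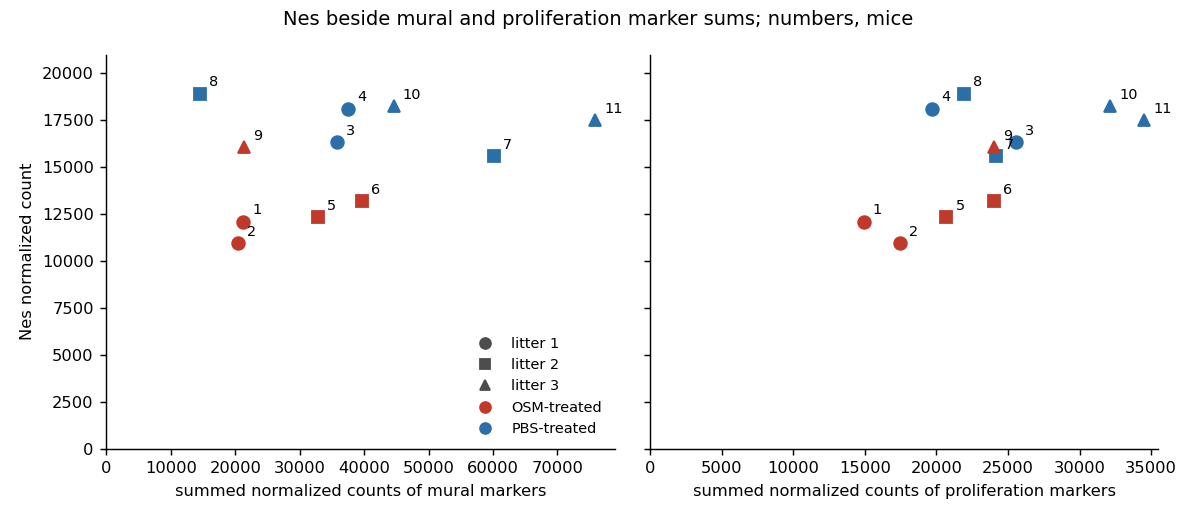
Normalized counts of Nes against the summed normalized counts of mural markers (left) and proliferation markers (right) in each of 11 mice, numbered. Mouse 8 combines the lowest mural sum, 14461, with the highest Nes count, 18923. Mouse 7, with a mural sum of 60128, has the lowest Nes count of the PBS-treated mice, 15583. Mice 1 and 2, with mural sums of 21213 and 20476, have the lowest Nes counts of all, 12104 and 10938. The OSM-treated mice lie lowest in Nes in both panels except for mouse 9.

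Vim, on chromosome 2 (13578738 to 13587639, plus strand), showed another pattern. The OSM-treated mice 1, 2, 5, 6 and 9 had 46198, 44116, 56215, 44076 and 44721 normalized counts. The PBS-treated mice ranged from 42200 to 54099 with a median of 47520. The treatments overlapped over nearly the whole range, with the highest count in OSM-treated mouse 5.

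The Vim means were 47065 ± 5187 (SD, n = 5) and 47261 ± 4061 (SD, n = 6), and the log2 difference was 0.005 with a standard error of 0.086. Within litters it was -0.02, 0.15 and -0.19, with both directions present. Without mouse 5, the 4 other OSM-treated mice had a mean of 44777 ± 992 (SD). Mouse 5 also had the highest rod sum, 117957, and whether this has a part in its Vim count was not tested. Müller glia are also rich in vimentin. The glial marker sum of mouse 5 was 18999, within the range of the other mice, and the glutamine synthetase gene Glul gave 9116 of it. This sum alone does not measure glia. Other glial markers of mouse 5 were mixed, with Aldoc at 723, its highest count, and Rlbp1 at 432. Slc1a3 and Dkk3 were at 5 each, and Aqp4, Aldh1l1 and Kcnj10 at 0. A part of glia in the Vim count of mouse 5 was not tested either. Vim was not called between litters (edgeR, adjusted p = 0.934) or for an interaction (adjusted p = 0.827). An antisense lncRNA, Gm54102, overlaps 586 bases of Vim exons, and counting without strand cannot tell their reads apart.

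Because Nes needs a partner to polymerize, the makeup of filament RNA was described as shares of the normalized counts of the 23 cytoplasmic filament genes. Nes made up 16.2 to 23.9% in OSM-treated mice and 22.1 to 28.1% in PBS-treated mice. In litters 1 and 2 each OSM-treated mouse was below each PBS-treated mouse, whereas in litter 3 the OSM-treated mouse, at 23.9%, was above both PBS-treated mice at 23.4% and 22.9%. Vim made up 66.5 to 73.8% with OSM and 60.8 to 69.4% with PBS. The shares of a mouse add up to a whole, so a lower Nes count raises the share of Vim. The log2 difference of the Vim counts themselves was 0.005. As Nes was chosen on this contrast, the shares are no separate result. These shares are read counts and are not corrected for length.

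Synm, on chromosome 7 (67379908 to 67409527, minus strand), varied most among the genes measured in every mouse. OSM-treated mice 1, 2, 5, 6 and 9 had 4637, 6600, 5312, 4526 and 5878 normalized counts, and PBS-treated mice ranged from 3845 to 8824 with a median of 6536. The OSM-treated values lay inside the range of the PBS-treated mice. The PBS-treated mice of litter 1, at 8824 and 8793, were the highest.

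The log2 difference for Synm was -0.21 with a standard error of 0.203. It was -0.67 in litter 1 and 0.09 and 0.11 in litters 2 and 3. Without litter 1 it was 0.06, so the negative value rests on that litter. The interaction was not called (edgeR, adjusted p = 0.822), nor were the litters (adjusted p = 0.561). The residual SD of Synm was 0.401 on the log2 scale, larger than for 95.0% of the 2033 genes within 2-fold of its level, whereas those of Nes (0.142) and Vim (0.145) exceeded 31.9% of 698 and 44.4% of 135 such genes. For Nes this is not separate from the choice, since a small residual SD favors a low p. Ttc23 on the other strand overlaps 84 bases of Synm exons, and Gm45102 overlaps 463.

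Plec, on chromosome 15 (76055174 to 76116774, minus strand), has the longest exons of the set with 18113 bases. OSM-treated mice 1, 2, 5, 6 and 9 had 9456, 10741, 6275, 7127 and 10130 normalized counts, and PBS-treated mice ranged from 6933 to 10972 with a median of 8343. The treatments overlapped, and both OSM-treated mice of litter 2 were low. The means were 8746 ± 1944 (SD, n = 5) and 8849 ± 1766 (SD, n = 6).

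The log2 difference for Plec was -0.02 with a standard error of 0.149, and within litters it was 0.13, -0.30 and 0.22. Plec was not called between litters (edgeR, adjusted p = 0.588) or for an interaction (adjusted p = 0.87). Parp10 on the same strand shares 205 bases with Plec exons.

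**Figure D4:**
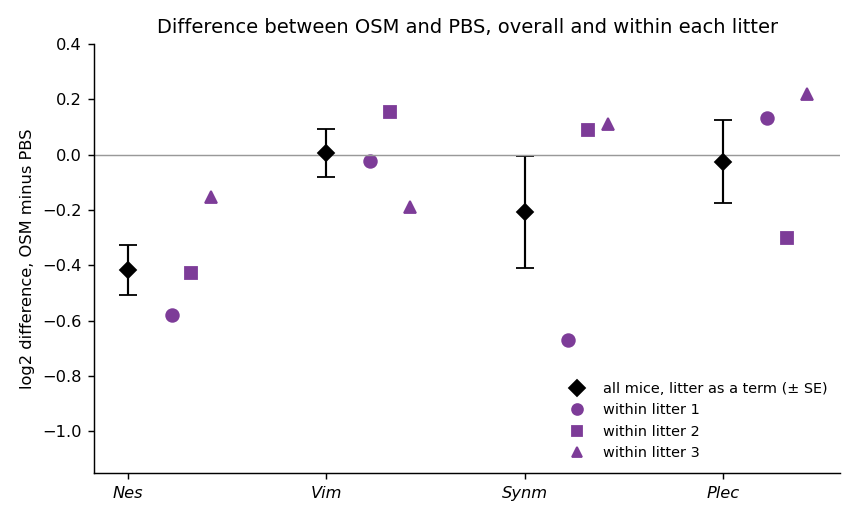
Log2 difference of OSM minus PBS for 4 genes, from all mice with litter as a term (diamonds, with standard error) and within each litter (other shapes). The 3 litters lie below 0 for Nes, from -0.58 to -0.15, and on both sides of 0 for Vim, Synm and Plec.

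Gfap, on chromosome 11 (102778159 to 102791738, minus strand), was near absent. Reads were found in 4 mice, with 34 in OSM-treated mouse 1 and 160, 167 and 7 in PBS-treated mice 4, 7 and 8. The other 7 mice had 0 reads, which allows up to 3 reads, or 1.83 to 3.88 normalized counts. Gfap passed the filter on low counts only through these few mice, and no fold change is given.

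The 13 markers of Müller glia and astrocytes summed to 14978 to 29300 in OSM-treated mice and 12530 to 22760 in PBS-treated mice, of which glutamine synthetase (Glul) gave 5406 to 9518, and 0 of them were at 0 in every mouse. The apolipoprotein E gene Apoe was also a large part, with 14307 in mouse 2. OSM-treated mouse 9 had a sum of 17237 but 0 reads of Rlbp1, Slc1a3, Aqp4, Aldh1l1 and Dkk3. The sum alone therefore does not measure glia. Of the 13 markers, 3 were highest in a mouse with Gfap reads. These were Glul in mouse 8, the calcium-binding protein gene S100b in mouse 4 (64 normalized counts) and the potassium channel gene Kcnj10 in mouse 7 (65), the last 2 in the mice with the highest Gfap counts. Another 6 were highest in mouse 2, which had no Gfap reads, among them the water channel gene Aqp4 (170) and the glutamate transporter gene Slc1a3 (968). Gfap was not called between litters (edgeR, adjusted p = 0.556) or for an interaction (adjusted p = 0.888). With reads in 4 mice and none in any mouse of litter 3, these tests cannot show whether Gfap varied between litters.

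Across the 11 mice no pair of genes passed the threshold for varying together. Of 10 pairs, 6 involve only genes measured in every mouse, and their Pearson r of log2 CPM ranged from -0.274 (Vim and Synm) to 0.183 (Nes and Synm), with a permutation p adjusted over 10 pairs of 0.95. Spearman rho was -0.118 and 0.127 for these pairs (adjusted permutation p = 1.0). After litter and treatment means were removed, the largest was Synm with Plec (r = -0.587, permutation p = 0.0559, adjusted p = 0.559, rho = -0.618, permutation p = 0.0485, adjusted p = 0.485). Without the 2 mice farthest from the median of the first gene, r changed sign for Vim with Synm (0.125), Vim with Plec (0.195) and Nes with Plec (0.413), and none was past the threshold.

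The genes with patterns most like those of Nes and Vim were found after litter means were removed, among 10910 others with a mean of at least 100 normalized counts. The 5 most like Nes were Coro1a, an actin-binding coronin (r = 0.913), Skp2, a ubiquitin ligase subunit of the cell cycle (r = 0.907), Mettl13, a methyltransferase (r = 0.889), Urb2, a ribosome biogenesis factor (r = 0.883), and Il18bp, which binds interleukin-18 (r = 0.876). All 5 also had lower fitted values with OSM, a difference that enters r. The 5 most like Vim were Cdk11b, Aig1, Ncoa6, Pde6c and Nudc, with r from 0.905 to 0.966. Pde6c, the cone phosphodiesterase, had 403 normalized counts in mouse 5 and 1049 in mouse 10, the mice with the highest Vim counts, and at most 3 in the others. Synm had r = 0.375 with Nes and Vim had r = -0.24 with Nes on this measure.

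Other filament genes were mostly at the floor. Of 23 cytoplasmic filament genes, 6 had reads in every mouse, and 12 passed the filter. Desmin (Des), the filament of muscle and pericytes, had 549.4 ± 191.1 normalized counts (SD, n = 5) with OSM and 1103 ± 882.4 (SD, n = 6) with PBS, with the 2 highest counts in PBS-treated mice 11 (2375) and 7 (1970), which also had the highest mural sums. The keratin Krt222 reached 464.4 and Krt10 103.1 on average. The other filament genes averaged at most 82.54 (the keratin Krt18, with 464.8 in mouse 5). By edgeR, 0 of the 12 were called, and Nes alone had an unadjusted p under 0.05. The median log2 difference of the 12 was -0.41, with 9 lower and 3 higher, against -0.01 for all 17050 genes. Low-count genes such as Gfap enter this median, as does Nes at -0.42, which was chosen on this contrast. The median is therefore no result about the family. The other genes with a mean of at least 100 had -0.75 (Des), -0.21 (Synm), -0.055 (Krt10), 0.005 (Vim) and 0.09 (Krt222).

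Linkers and partners were measured more widely. Of 7 cytolinkers 5 were tested, 0 were called, and the 5 had fitted values below 0, with a median of -0.12. Among all 17050 genes tested, 8795 had fitted values below 0. The median was the value of a gene with reads in 3 mice and a mean of 4.2 normalized counts, and its standard error was 1.798. For Plec the log2 difference was -0.025 with a standard error of 0.149. Macf1, which joins actin to microtubules, had 6155 ± 920.5 (SD, n = 5) and 6724 ± 970.2 (SD, n = 6) normalized counts, and Dst 2599 ± 782.6 and 3108 ± 813.4. Envoplakin (Evpl), a plakin of epithelia, was at 0 in mouse 5 and 107 to 322 in the other OSM-treated mice. It was at 221 to 473 in the PBS-treated mice, and its log2 difference of -1.31 had a standard error of 0.949. Like Nes, Evpl was lower in the OSM-treated mouse in 10 of 10 pairs within litters. Macf1 was lower in 8 of 10 such pairs and Dst in 6 of 10.

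Of the 12 filament partners, 7 were lower and 5 higher in fitted values, 0 were called by edgeR, and 1 had an unadjusted p under 0.05. This was Cryab, a small heat shock protein that binds filaments. It had 323.8 ± 225.6 (SD, n = 5) normalized counts with OSM and 682.2 ± 284.2 (SD, n = 6) with PBS, with a log2 difference of -1.13 and a standard error of 0.495 (edgeR, unadjusted p = 0.0436, adjusted p = 0.955). Integrin Itga6 (16120 ± 3928 and 17490 ± 3710) and dystroglycan Dag1 (8232 ± 2120 and 8912 ± 1495) were abundant and overlapped between treatments. The integrin subunit Itgb4 had 482.9 ± 451.4 and 611.8 ± 446.9. The log2 differences were -0.11 for utrophin (Utrn), 0.07 for the heat shock gene Hspb1, -0.17 for the kinase Cdk5, 0.003 for the adaptor Ywhaz and 0.11 for dystrobrevin (Dtnb).

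Kinases that phosphorylate vimentin or nestin were the last list. Of 9 tested, 7 had fitted values below 0 and 2 above, and 0 were called or had an unadjusted p under 0.05 by edgeR. The mitotic kinases Cdk1, Plk1 and Aurkb had log2 differences of -0.24, -0.34 and -0.60. The kinases Rock1 and Rock2, which act on filaments in division, had -0.25 and -0.09, and Pak2, Prkaca and Prkce had -0.003, 0.09 and 0.05. Of the 23 genes in the 4 lists that are not members and had a mean of at least 100 normalized counts, 17 were lower and 6 higher, with a median of -0.13. Among all 10911 genes at that level, 5487 were lower and 5424 higher, with a median of -0.002. Between litters, edgeR called 0.0176% of genes, and 0 of the genes in these lists. For the interaction it called 0.0%, with 1095 genes at an unadjusted p under 0.05 and 673 calls by DESeq2.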

How the data were processed

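RNA was taken from sorted retinal endothelial cells of 11 mice. The authors made PCR-amplified cDNA with poly(A) priming, aligned single reads to GRCm39 with STAR and counted them, without strand, over GENCODE genes with featureCounts. The deposited counts are whole numbers of reads, not normalized, for 55359 genes. Of these, 54749 were matched to GENCODE vM39, which gave symbols, positions and exon lengths. The count columns of mice 10 and 11 carry the numbers 11 and 12, and the sample labels were used.

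Groups and litters follow the labels. Counts were analyzed with edgeR 4.0.16 in R 4.3.3 (TMM, filterByExpr with a count minimum of 10, robust quasi-likelihood fit, litter and treatment as terms, Benjamini-Hochberg adjustment, threshold 0.05), which retained 17050 genes. DESeq2 1.42.0, which the authors used, was an alternative. Normalized counts are reads scaled to TMM-adjusted library size. Log2 CPM used a prior count of 2. Levels per kb used the union of exons, and permutations of correlations numbered 100000.

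The members and gene lists were chosen with earlier results of these data known. Some genes of these lists are not reported here and were left out of list counts and marker sums. Genes named are the members, list genes with a mean of at least 100 normalized counts or an unadjusted p under 0.05, and the 5 genes most correlated with Nes and with Vim. Single glial marker genes beside Gfap and Vim were chosen after their values were seen. Alternatives were no litter term, DESeq2 size factors, other filters, no robust estimation, DESeq2 itself, and leaving out each mouse or litter. A filter by treatment group was added after seeing the data. No libraries were copies: over all pairs, chi-square per gene was at least 68.211. Replicates are mice, and counting error alone was not used, since PCR reads are not independent molecules.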

Additional observations from a re-analysis of the deposited data

Results flagged for a closer look

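A mouse standing apart from its group by Dixon's criterion was sought in 10 groups (5 genes, 2 treatments), and 2 were found. Chance flags about 1 group in 20. Vim in OSM-treated mouse 5, at 56200 normalized counts, was apart from the other 4 OSM-treated mice (gap over range 0.807, critical value 0.71). This mouse also had the highest summed level of rod markers, 117957, and the part of this in the Vim count was not tested. Gfap in OSM-treated mouse 1, at 33.3 normalized counts, stood apart because the other 4 OSM-treated mice had 0 reads.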

How the results depend on the processing

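No paired analysis was possible because mouse numbers are not shared between the treatments, and litter was a term instead. The log2 difference of Nes stayed negative under every alternative run, from -0.51 to -0.32, with an adjusted p between 0.00233 (DESeq2) and 1.0. DESeq2 called 1 gene of the 4 lists, Nes itself, where edgeR called 0. As Nes was chosen on this contrast from these same mice, neither its adjusted p nor its steady sign is a test. The log2 differences of Vim and Plec lay on both sides of 0 with 1 mouse or 1 litter left out (Vim -0.09 to 0.07, Plec -0.11 to 0.14). Synm ranged from -0.38 to 0.06. The fitted value of Gfap is not given here because 7 mice had 0 reads.

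Genes called between OSM and PBS numbered 0 with edgeR, 168 with DESeq2 and 65 without a filter on low counts. Between litters there were 3, against 995 with the DESeq2 likelihood ratio test, 625 without a filter and 0 to 44 with 1 mouse left out (44 without PBS-treated mouse 8). For treatment by litter there were 0, against 673 with DESeq2, 305 without a filter and 0 to 1 with 1 mouse left out, where leaving out OSM-treated mouse 9 could not be fitted because litter 3 then has no OSM-treated mouse. The cause of these differences was not tested. The order of levels kept its direction and side of the threshold under every alternative run, with Synm minus Plec falling to 0.37 with the longest transcript. Of 10 pairs of members, 0 passed the threshold under each setting. The sign of r without the 2 mice farthest from the median of the first gene turned to 0.413 for Nes with Plec, 0.195 for Vim with Plec and 0.125 for Vim with Synm. Gfap is limited by its low counts.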
